A study of Mus musculus with 11 samples.

Results

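The comparison of injured cortex from VP16-CREB transgenic mice with injured cortex from wild-type mice asked how CREB activity in astrocytes alters gene expression after a focal brain lesion. These groups were on 8 of the 11 2-colour microarrays of the series, those whose titles place at least 1 mouse of either group on the array. They made up 11 of 22 mice. The fits described further on used all 11 arrays, so the intact mice also entered them. The 6 transgenic lesioned mice are called TC and the 5 wild-type lesioned mice WTC. The TC mice carried GFA2-tTa and TetO-VP16-CREB, so that a promoter active in astrocytes drove a transactivator that switched on a permanently active CREB; the labels give the WTC mice only as wild type. All mice were on a C57/Bl6J background and 5 to 7 months old, and in both groups a dry ice pellet had been held on the brain surface for 30 s, 3 days before the cortex of the right hemisphere was taken. Arrays K, L and M paired 1 TC with 1 WTC mouse each. The remaining arrays linked lesioned mice to intact transgenic mice (T, n = 5) or intact wild-type mice (WT, n = 6).

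CREB is a transcription factor that binds the cAMP response element and, once phosphorylated, recruits coactivators to genes of signalling, growth and metabolism. Fusion to the viral activation domain VP16 makes it activate such genes without phosphorylation. Astrocytes answer a cortical injury by raising cytoskeletal genes such as Gfap and Vim, and they supply neurons with metabolites from glycolysis and glycogen. The transgene is directed to astrocytes by its promoter, while the arrays measured RNA of the whole piece of cortex. Which cells expressed it was not measured here.

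The labels disagree for 3 of the arrays. The second-channel description of arrays I and K calls a TC mouse intact, and that of array J calls a T mouse lesioned; groups were taken from the titles. The TC mouse of array I stood apart from the other lesioned mice. Its mean log2 level over the 22 measured pan-reactive astrocyte genes was 10.25, below the remaining 5 TC mice (11.18 to 12.18) and the WTC mice (11.30 to 12.32), and above the intact mice (9.26 to 9.88). Its mean over 24 cell cycle genes was 8.03, where the remaining TC mice had 9.37 to 10.87. That level lay within the range of intact mice (7.90 to 8.43 in T, 7.84 to 8.33 in WT). So did its mean over 22 homeostatic microglia genes (11.32, with 11.21 to 11.57 in T and 11.17 to 11.67 in WT). Its Gfap level (13.94 on the log2 scale) nevertheless lay above the T and WT mice, whose highest level was 12.72. Results are given with all 6 TC mice, and without this mouse where that changes them. By Y-linked genes all 6 TC mice were male and 1 of the 5 WTC mice, that of array M, was female. Of the TC mice 5 of 6 were hybridised on slide 2, against 3 of 5 WTC mice. Between 58.3% and 65.3% of spots were well above background in the channels of lesioned mice, and no spot was saturated. The series text speaks of several hybridisations of each sample, but in these files each mouse was on 1 array, so the p-values measure the spread between mice.

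No gene passed when TC was compared with WTC through the log2 ratios of the 11 arrays, with one limma fit and a term for the dye (the ratio fit). Of 26079 features, which are genes or probes without a gene symbol, 0 were higher and 0 lower at a Benjamini-Hochberg adjusted p under 0.05, and the smallest adjusted p was 0.13. At an unadjusted p under 0.05 there were 3857 features, 1594 higher (6.11% of those tested) and 2263 lower (8.68%), where 1304 were expected by chance. This fit has 7 residual degrees of freedom. A second limma fit used the level of each dye channel, with the 2 channels of a spot correlated (the separate-channel fit, 17 residual degrees of freedom). It called 39 features higher in TC (0.15%) and 8 lower (0.0307%) after the same adjustment, and at an unadjusted p under 0.05 it had 1930 higher (7.4%) and 2433 lower (9.33%). All 47 had the same sign and an unadjusted p under 0.05 in the ratio fit, and 28 of them had no overlap between the 6 TC and 5 WTC levels. Non-overlapping levels occurred in 55 features in the higher direction (0.212% of 25976) and in 61 in the lower direction (0.235%). The calls depend on that second model: fitted to the lesioned mice alone it called 2 features higher and 0 lower, and without the female WTC mouse 11 higher and 1 lower, with 10 of the 47 still called. With the second-channel labels of arrays I, J and K it called 19 higher and 0 lower, with 15 of the 47 still called. Of the 22 with a gene symbol, Prm1 and Dgkk were still called in the lesioned mice alone. Fbxl21, Fgl2, Prm1, Mif, Dgkk and Tinf2 were still called without the female WTC mouse. Ifrd1, Fbxl21, Prm1, Gm12070 and Mif were still called with the second-channel labels. In each of these fits all 47 kept their sign. The 47 were picked from the same mice and arrays, so their sign, p and separation in other fits give no independent support. In bulk tissue, fewer cells of a type and less RNA per cell cannot be told apart. The 22 called features with a gene symbol, 16 higher and 6 lower, are described next; they were chosen by this call, after their values were seen, except Prm1, Dgkk, Fbxl21, Prdx5 and Elovl2, which the naming rule gives.

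Dgkk, which encodes diacylglycerol kinase kappa, an enzyme that converts diacylglycerol to phosphatidic acid, rose in TC. Its log2 level in TC ran from 9.33 through a median of 9.79 to 10.65, and in the WTC mice of arrays A, B, K, L and M it was 6.66, 6.41, 7.94, 6.63 and 7.56. Every TC mouse, that of array I included (9.92), lay above every WTC mouse, every T mouse (6.76 to 8.09) and every WT mouse (6.56 to 8.73). With the second-channel labels, which make the TC mice of arrays I and K intact, Dgkk was no longer called. Dgkk rose by a log2 ratio of 2.84 ± 0.34 (SE, n = 6 and 5) in the separate-channel fit (limma, adjusted p = 0.0011); the ratio fit gave 2.85 ± 0.45 (adjusted p = 0.13), and arrays K, L and M gave 1.72, 2.70 and 2.58. Values of single arrays here and further on are the TC mouse minus the WTC mouse on that array, less the dye term; TC was in Cy3 on K and M and in Cy5 on L. Of the 10 diacylglycerol kinase genes measured, Dgkk was the one called by the separate-channel fit, and the median log2 ratio of the 10 was -0.06.

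Fbxl21, an F-box protein that takes part in the turnover of circadian clock proteins, rose as well. TC levels ran from 8.04 (array I) through a median of 8.79 to 9.83, and WTC levels were 6.93, 7.14, 7.10, 7.21 and 7.31. No TC and WTC mouse overlapped, while the TC mouse of array I lay within the WT range of 7.44 to 8.25. The separate-channel log2 ratio was 1.77 ± 0.21 (limma, adjusted p = 0.0011), with 1.58, 1.40 and 1.97 on arrays K, L and M. Of 16 clock genes, 3 were higher and 1 lower at an unadjusted p under 0.05 in the ratio fit, and the median log2 ratio was -0.05 against -0.02 for all features; the separate-channel fit had 3 and 0 and a median of 0.03.

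Prm1, a protamine that packs DNA in sperm heads, was also called higher. Its log2 level in TC was 10.06 (array I), with a median of 12.48 and a highest value of 13.32, and in WTC it was 6.52, 5.63, 7.54, 6.02 and 7.98. The TC and WTC mice did not overlap, but the intact mice spanned much of the range, from 6.46 to 11.88 in T and from 5.79 to 10.29 in WT. The separate-channel log2 ratio was 5.49 ± 0.89 (limma, adjusted p = 0.012); the Prm1 probe was well above background in 6 of 6 TC and 3 of 5 WTC channels, so the ratio rests in part on WTC levels near background. Prm2, also a protamine, had a ratio-fit log2 ratio of 0.08 ± 0.08 (adjusted p = 0.67). Tnp1, a transition protein of spermatids, had 0.10 ± 0.07 (adjusted p = 0.49).

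**Figure D1:**
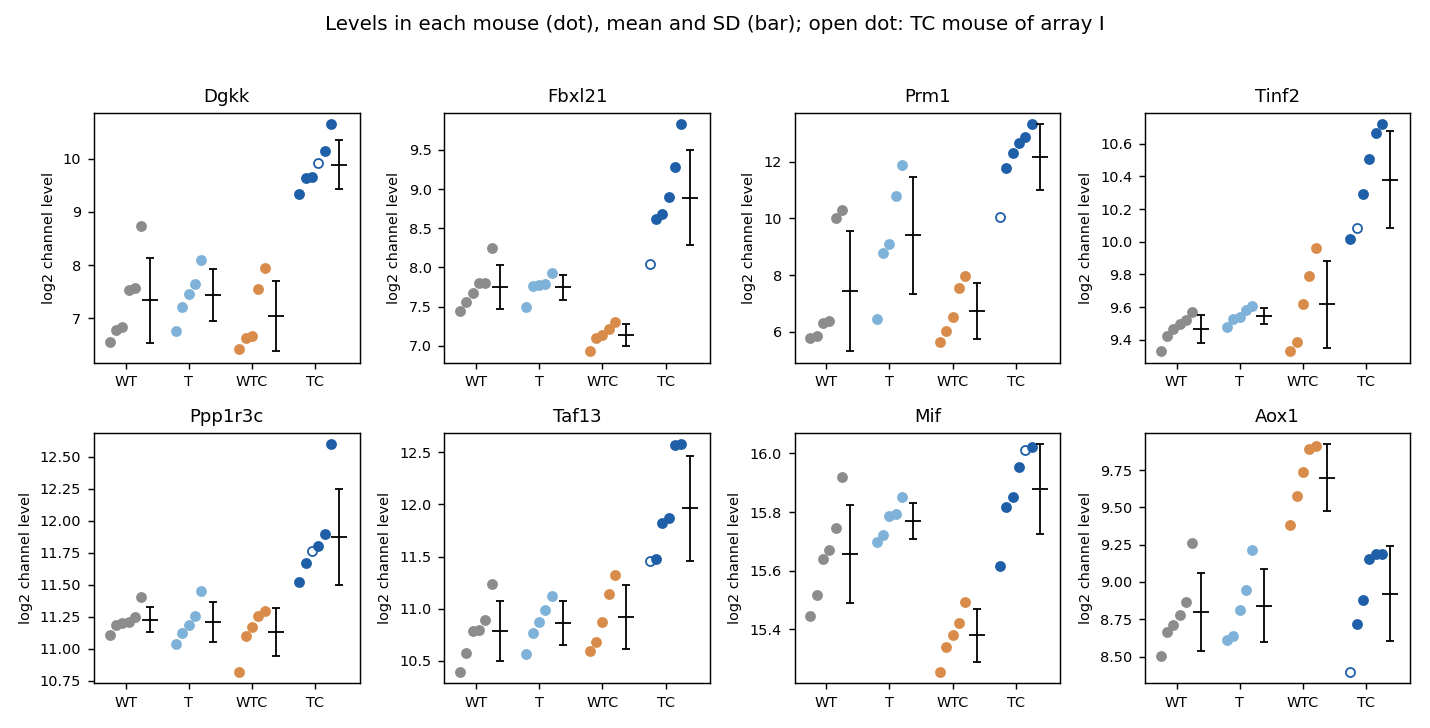
Log2 channel level (vertical axis) of 8 genes in each of the 22 mice, by group: intact wild type (WT), intact transgenic (T), lesioned wild type (WTC) and lesioned transgenic (TC). Dots are mice, bars the mean and SD, and the open dot is the TC mouse of array I; TC and WTC mice do not overlap in any of the 8 genes.

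Other called genes had smaller ratios. Tinf2 is a subunit of shelterin, the complex that protects telomeres. Its TC levels ran from 10.01 through 10.40 to 10.72 and its WTC levels were 9.62, 9.39, 9.33, 9.79 and 9.96, without overlap and above all T (9.48 to 9.61) and WT mice (9.33 to 9.57). The separate-channel log2 ratio was 0.77 ± 0.12 (limma, adjusted p = 0.012), with 1.17, 0.23 and 0.76 on arrays K, L and M. Taf13, a subunit of the general transcription factor TFIID, ran from 11.46 through 11.85 to 12.58 in TC against 10.69, 10.87, 10.60, 11.14 and 11.33 in WTC, again above every other mouse. Its log2 ratio was 1.04 ± 0.20 (limma, adjusted p = 0.032). Ifrd1, a transcriptional coregulator, rose by 0.76 ± 0.14 (limma, adjusted p = 0.026), with 1 of 6 TC mice, that of array I (11.41), below the highest WTC mouse (11.46). Pax1, a paired-box developmental regulator, was well above background in 5 of 6 TC and 0 of 5 WTC channels and was at least 1.47-fold higher in TC (limma, adjusted p = 0.012). That bound sets the mean of the TC mice against, in each WTC channel, the lowest signal that counted as well above background or the probe's own, whichever was higher.

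The enzyme regulators and metabolic genes among the calls follow. Ppp1r3c targets protein phosphatase 1 to glycogen and promotes its synthesis. It ran from 11.52 through 11.78 to 12.60 in TC and was 11.29, 11.25, 10.82, 11.17 and 11.10 in WTC; all 6 TC mice exceeded all 16 other mice, and the highest level, that of array C, stood apart from the other TC mice. The separate-channel log2 ratio was 0.74 ± 0.13 (limma, adjusted p = 0.019). Slc25a3, the mitochondrial phosphate carrier, rose by 0.43 ± 0.09 (limma, adjusted p = 0.047), although the TC mouse of array K (13.59) lay within the WTC range of 13.25 to 13.62. Prdx5, a peroxidase of mitochondria and peroxisomes, rose by 0.47 ± 0.09 (limma, adjusted p = 0.045). Uap1, which makes UDP-N-acetylglucosamine, rose by 0.51 ± 0.10 (limma, adjusted p = 0.047); without the mouse of array I, Prdx5 and Slc25a3 no longer passed (adjusted p = 0.0735 and 0.0699), while Uap1 did (adjusted p = 0.000796).

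Mif, a cytokine secreted by many cell types, rose by 0.50 ± 0.08 (limma, adjusted p = 0.012). TC levels ran from 15.62 to 16.02 and WTC levels from 15.26 to 15.49, without overlap, and T (15.70 to 15.85) and WT (15.45 to 15.92) lay largely within the TC range. Fgl2, a membrane prothrombinase of immune cells that is also raised in reactive astrocytes, rose by 1.15 ± 0.21 (limma, adjusted p = 0.026). Its TC levels ran from 7.88 through 8.15 to 9.32, its WTC levels were 7.02, 6.90, 6.98, 7.45 and 7.92, and the groups met at the TC mouse of array L and the WTC mouse of array M. Tssk6, a testis kinase, rose by 0.35 ± 0.07 (limma, adjusted p = 0.049). Gm12070 and Gm5523 are transcribed pseudogenes, so signal from near-identical copies may reach their probes; they had log2 ratios of 0.34 and 0.32, positive on each of arrays K, L and M (0.34, 0.39 and 0.52 for Gm12070, 0.39, 0.41 and 0.42 for Gm5523).

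The 6 genes called lower were Slc38a3, Aox1, Elovl2, Dnaic2, Crocc and Spata17. Slc38a3, a glutamine transporter of astrocytes and other cells, fell by 0.90 ± 0.18 on the log2 scale (limma, adjusted p = 0.043). Its TC levels ran from 10.57 through 11.004 to 11.84 and its WTC levels were 11.39, 12.39, 12.30, 11.96 and 12.09, with overlap only through the WTC mouse of array A; intact mice lay between 10.48 and 11.08. Aox1, an aldehyde oxidase, fell by 0.74 ± 0.14 (limma, adjusted p = 0.031), with TC levels of 8.40 to 9.19 below all WTC levels (9.38 to 9.91) and intact mice between 8.50 and 9.26. Elovl2, which lengthens polyunsaturated fatty acids and is expressed in astrocytes, fell by 0.49 ± 0.09 (limma, adjusted p = 0.031), on all of arrays K, L and M (-0.72, -0.45 and -0.55).

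The other three genes called lower are tied to cilia or sperm. Dnaic2, a dynein chain of motile cilia, fell by 0.91 ± 0.18 (limma, adjusted p = 0.04), with 8.12 to 9.07 in TC and 9.22, 9.59, 9.75, 9.31 and 9.27 in WTC, without overlap. Crocc, the main protein of the ciliary rootlet, fell by 0.72 ± 0.14 (limma, adjusted p = 0.038). Spata17, a calmodulin-binding protein of sperm, fell by 0.51 ± 0.10 (limma, adjusted p = 0.045). Markers of choroid plexus and ependyma, the ciliated lining of the ventricles, moved with the groups: all 15 of 15 had a negative ratio, and the mean log2 level of the list ran from 7.36 to 11.65 in TC and from 9.42 to 11.70 in WTC. Their part in these 3 results was not tested. Without the mouse of array I, Aox1 and Elovl2 still passed (adjusted p = 0.033 and 0.0099), while Slc38a3, Dnaic2, Crocc and Spata17 did not (adjusted p = 0.0624, 0.0622, 0.0602 and 0.0737). None of the 6 passed with a sex term, in the lesioned mice alone, on slide 2 alone, without the female WTC mouse or with the second-channel labels; for Aox1 the adjusted p in these fits ran from 0.0702 to 0.697.

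**Figure D2:**
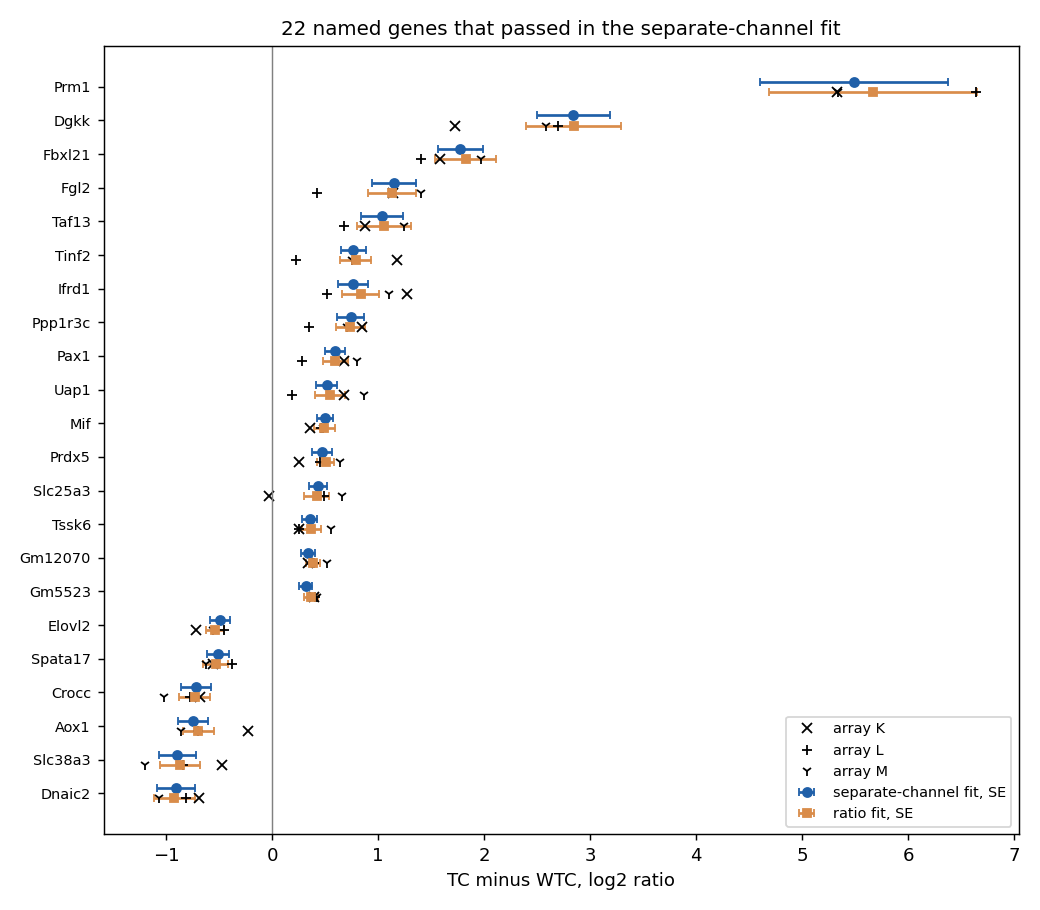
TC minus WTC log2 ratio (horizontal axis) of the 22 genes with a symbol that passed in the separate-channel fit. Circles are the separate-channel fit and squares the ratio fit, with SE; crosses are the single arrays K, L and M, less the dye term. Prm1 (5.49) and Dgkk (2.84) lie farthest to the right, and Slc25a3 on array K (-0.03) is the single array value of the opposite sign.

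The start sites of the called genes were searched for the cAMP response element in RefSeq promoters (GRCm38.p6). The windows were the 250 bases before the start, read along the gene's strand, and the letters were the full element TGACGTCA or its core TGACG, with CGTCA as the core on the other strand; each full element also holds the core. Of the 16 genes called higher, 14 matched a window: 2 held the full element (Mif and Tinf2) and 9 held the core (also Pax1, Ifrd1, Fbxl21, Uap1, Slc25a3, Taf13 and Tssk6). Of the 6 called lower, 5 matched and 0 held either. Over all 32851 windows of that length, 1.55% held the full element and 17.8% the core. The 4 windows printed here are the 2 with the full element, that of Taf13, which has 2 cores, and that of Ifrd1, which has 1 within 50 bases of the start. Tinf2 is on the minus strand at chr14:55681818-55682067, with matches that begin 99, 84 and 56 bases before the start. Mif is on the minus strand at chr10:75860278-75860527, with 1 match that begins 24 bases before it. Taf13 is on the plus strand at chr3:108571449-108571698, with 2 matches, the nearer at 46 bases, and Ifrd1 on the minus strand at chr12:40223190-40223439, with a match at 47. Capitals mark the element or its core, and a match describes letters in the window, not binding.
Tinf2: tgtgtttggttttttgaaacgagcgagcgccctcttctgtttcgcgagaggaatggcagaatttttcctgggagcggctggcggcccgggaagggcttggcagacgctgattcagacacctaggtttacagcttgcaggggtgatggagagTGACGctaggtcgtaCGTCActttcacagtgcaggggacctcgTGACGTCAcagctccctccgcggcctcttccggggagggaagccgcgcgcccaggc
Mif: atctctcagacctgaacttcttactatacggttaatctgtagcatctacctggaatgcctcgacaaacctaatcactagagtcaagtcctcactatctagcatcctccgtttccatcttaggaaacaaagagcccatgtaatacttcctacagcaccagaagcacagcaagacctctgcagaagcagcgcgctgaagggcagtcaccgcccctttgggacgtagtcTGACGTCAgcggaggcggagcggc
Taf13: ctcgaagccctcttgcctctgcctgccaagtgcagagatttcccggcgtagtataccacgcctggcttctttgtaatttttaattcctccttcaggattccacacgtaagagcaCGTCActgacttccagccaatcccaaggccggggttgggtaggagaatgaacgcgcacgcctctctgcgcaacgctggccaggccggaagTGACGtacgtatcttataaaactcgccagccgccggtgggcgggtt
Ifrd1: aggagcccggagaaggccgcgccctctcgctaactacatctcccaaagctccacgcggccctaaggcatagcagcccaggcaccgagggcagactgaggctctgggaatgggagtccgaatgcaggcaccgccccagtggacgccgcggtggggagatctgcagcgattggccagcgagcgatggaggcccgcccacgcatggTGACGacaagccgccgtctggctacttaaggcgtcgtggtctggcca

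Besides the called genes, the ratio fit ranked genes by p among those with 1 sign on arrays K, L and M. That filter was met by 2698 features in the higher direction (10.4% of 26025) and 3523 in the lower (13.5%). The filter used ratios before the dye term was taken off; all 20 genes it named also had 1 sign after that, as did 12.5% of features in the higher and 15.3% in the lower direction. Of the 20 named this way, 5 are described above (Dgkk, Fbxl21, Prm1, Prdx5, Elovl2), and the other 15 all had an adjusted p of 0.13 in the ratio fit and did not pass in either fit. Higher values in TC were found for 6. Nop14, needed to process the small ribosomal subunit's RNA, had a log2 ratio of 0.62 ± 0.09. Cox5a, a subunit of cytochrome c oxidase, had 0.57 ± 0.08, and Pgk1, a kinase of glycolysis, 0.50 ± 0.09. Eef1e1, a cofactor of tRNA synthetases, had 0.47 ± 0.08, Gnpnat1, of the same sugar-nucleotide pathway as Uap1, 0.41 ± 0.06, and Trap1, a mitochondrial chaperone, 0.33 ± 0.06. TC and WTC mice overlapped in all 6, with the WTC mouse of array A the highest of its group and the TC mice of arrays K and M the lowest of theirs.

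The 9 genes with lower values in TC were led by Penk, the precursor of enkephalin and a classic CREB target that is also abundant in the striatum. Its levels ran from 10.997 through 12.12 to 14.83 in TC and were 12.23, 15.32, 12.88, 15.07 and 15.80 in WTC, and the log2 ratio was -2.92 ± 0.45. The size of this ratio depended on the processing, from -3.81 to -1.69 over 34 alternatives. Adcy5, the adenylyl cyclase typical of striatum, had -1.42 ± 0.28 and Pdzd2, a PDZ-domain protein, -1.08 ± 0.16. Retn, the hormone resistin, had -0.82 ± 0.15 and Bcr, a Rac GTPase-activating protein, -0.64 ± 0.12. Rragd, a GTPase that signals amino acids to mTORC1, had -0.63 ± 0.11 and S1pr1, a receptor for sphingosine-1-phosphate, -0.55 ± 0.10. Sema5b, an axon guidance protein, had -0.48 ± 0.07, and Trmt6, a tRNA methyltransferase subunit, -0.36 ± 0.07. Without the array of TC mouse I, Pdzd2 passed in the ratio fit (-1.01, adjusted p = 0.03); the other 8 did not.

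In all, 54 gene lists with 923 names were read, of which 883 were measured. They are given by their median log2 ratio in the ratio fit and by the members at an unadjusted p under 0.05; no member passed in that fit after adjustment. Over all features the median log2 ratio was -0.02 and 44.4% of ratios were positive. At an unadjusted p under 0.05, 6.11% of all features were higher and 8.68% lower in the ratio fit. In the separate-channel fit these shares were 7.4% and 9.33%. The counts of each list are to be read against them. Centring each array on its median, in place of loess, moved the median of all features to 0.09 and turned the sign of several list medians close to 0.

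**Figure D3:**
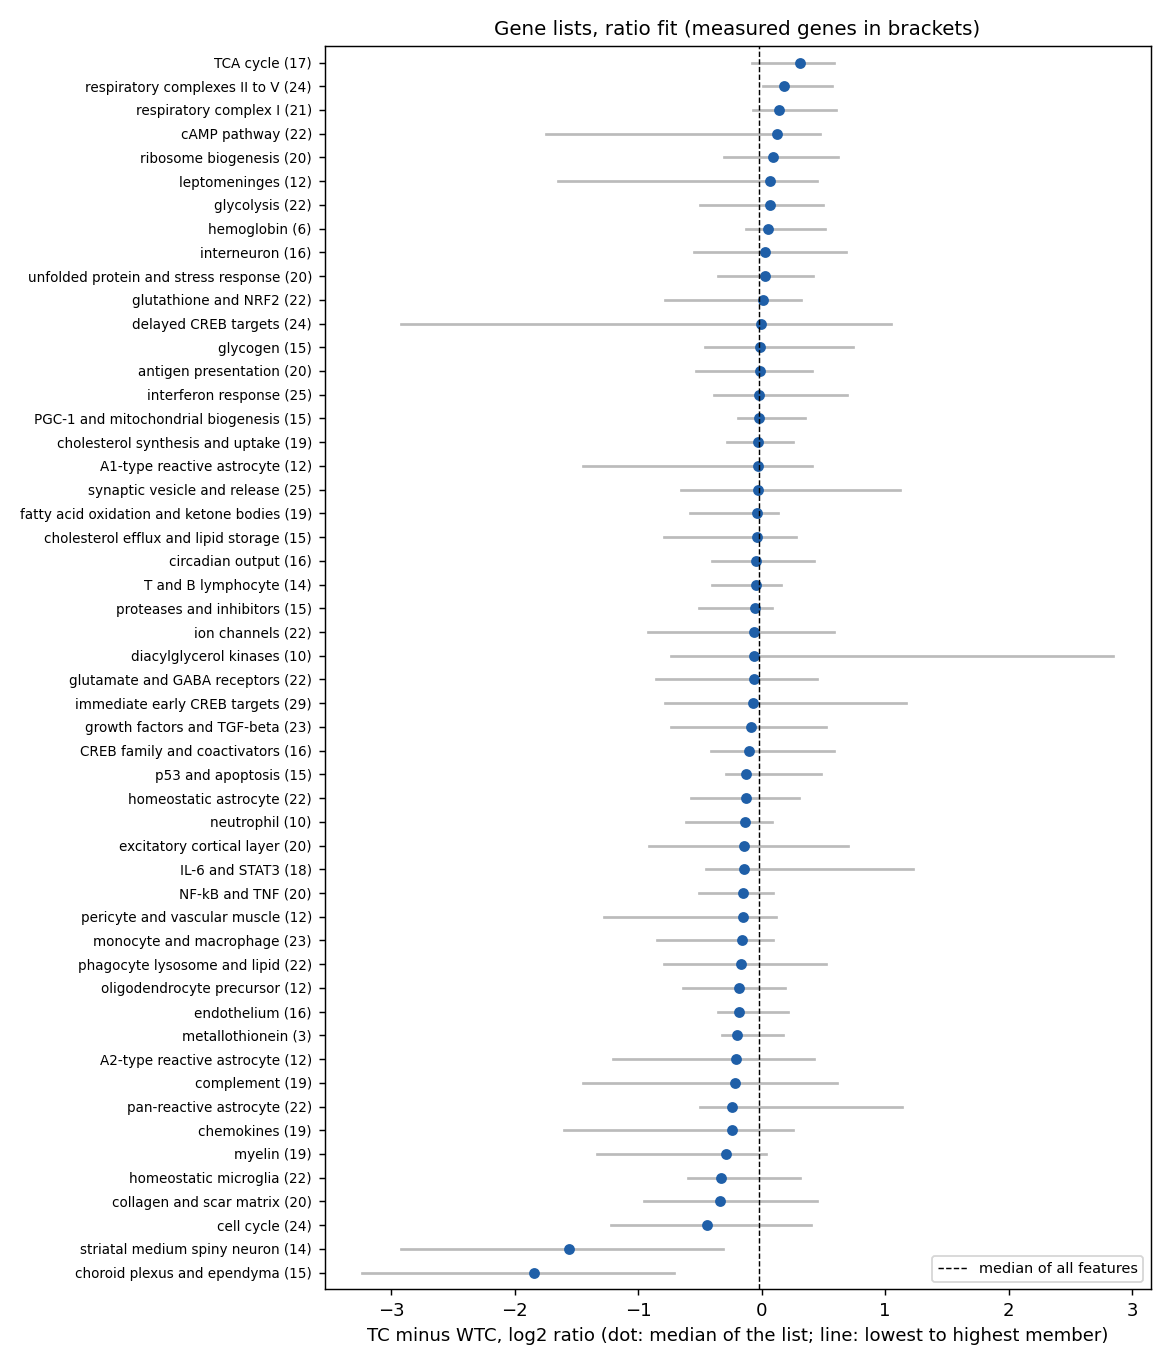
Median TC minus WTC log2 ratio (dot, horizontal axis) of 52 gene lists in the ratio fit, with the lowest to the highest member (line) and the number of measured genes in brackets. The dashed line is the median of all features (-0.02); the TCA cycle is highest at 0.31, and striatal and choroid plexus markers are lowest at -1.56 and -1.84.

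The CREB family showed no call in either fit. Creb1 itself had a log2 ratio of 0.25 ± 0.14 (limma, adjusted p = 0.44), with 7.21 through 8.09 to 8.51 in TC and 7.77, 7.61, 7.49, 7.87 and 7.25 in WTC; whether this probe also reads RNA of the transgene is stated by neither the labels nor the file headers. Crem, which encodes activators and the inducible repressor ICER and is itself a CREB target, had 0.59 ± 0.16 (adjusted p = 0.19) and 0.63 in the separate-channel fit (adjusted p = 0.084). Its TC levels of 9.53 to 10.55 overlapped with WTC (8.83 to 9.58) through the TC mouse of array I alone. Atf1, a close relative of CREB, had -0.03 ± 0.11, a direction kept in 24 of 34 alternatives. Of 16 members and coactivators, 1 was higher and 2 lower at an unadjusted p under 0.05, one of these Crtc3, a cAMP-regulated coactivator, with -0.27 ± 0.07 (adjusted p = 0.18). In the authors' deposited table of TC against WTC, Creb1 had 0.70 (limma, adjusted p = 0.0099) and Crem 0.78 (limma, adjusted p = 0.014). There both passed, while Atf1 (0.13) and Crtc3 (-0.20) did not.

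Of 29 measured immediate early CREB targets, 2 were higher and 0 lower at an unadjusted p under 0.05 (6.11% and 8.68% over all features), and the median was -0.07. These were Fos and Dusp1. Fos, the immediate early transcription factor, ran from 9.39 through 9.75 to 11.08 in TC and was 8.42, 8.57, 8.26, 9.15 and 8.92 in WTC. The groups did not overlap, while T mice reached 10.32. The log2 ratio was 1.17 ± 0.28 in the ratio fit (limma, adjusted p = 0.16) and 1.26 by separate channels (adjusted p = 0.063); leaving out the array I mouse from TC gave an adjusted p of 0.047. Dusp1, a phosphatase of MAP kinases, had 0.45 ± 0.17 (adjusted p = 0.28).

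Of 24 delayed CREB targets, 4 were higher and 4 lower at an unadjusted p under 0.05, with a median of -0.01 whose sign was kept in 14 of 34 alternatives; the separate-channel fit had 5 higher and 1 lower. The 4 lower in the ratio fit were Penk, Pdyn, Tac1 and Homer1; Penk, Pdyn and Tac1 are also on the list of striatal markers, which moved with the groups. Pcsk1, the prohormone convertase, had TC levels of 8.41 through 8.80 to 9.97 and WTC levels of 8.05, 7.92, 8.06, 7.98 and 7.75, without overlap; T (8.40 to 9.38) and WT (8.50 to 8.92) lay within the TC range. Its log2 ratio was 1.05 ± 0.30 (adjusted p = 0.19), and array M (2.22) exceeded arrays K (0.39) and L (0.42). Gem, a small GTPase, had 0.81 ± 0.26 and passed in the separate-channel fit only without the TC mouse of array I (0.96, limma, adjusted p = 0.029). Nfil3, a bZIP repressor, had 0.48 ± 0.12 (adjusted p = 0.16).

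The 22 genes of cAMP handling had a median of 0.13, with 3 higher and 4 lower at an unadjusted p under 0.05. Prkar2a, a regulatory subunit of protein kinase A, had 0.43 ± 0.10 (adjusted p = 0.14). Pde10a, a phosphodiesterase enriched in striatum, had -1.75 ± 0.44 (adjusted p = 0.16), and here as for Adcy5 the striatal markers moved with the groups, as described further on.

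Genes of mitochondrial energy metabolism had mostly positive ratios. Of 17 TCA cycle genes, 15 were positive and 10 were higher and 0 lower at an unadjusted p under 0.05, with a median of 0.31. All 24 genes of respiratory complexes II to V were positive, 11 at an unadjusted p under 0.05 and 0 lower, with a median of 0.18. Of 21 complex I genes 17 were positive, 6 higher and 0 lower, with a median of 0.14, and of 22 glycolytic genes 16 were positive, 6 higher and 0 lower, with a median of 0.07. These 4 medians were positive in all 34 alternatives, from 0.22 to 0.58 for the TCA cycle and from 0.13 to 0.47 for complexes II to V. No member passed in either fit after adjustment.

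Within these lists the named members were close in size. Sucla2, a subunit of succinyl-CoA synthetase, ran from 13.20 through 14.03 to 14.43 in TC and was 14.11, 13.33, 13.003, 13.60 and 12.69 in WTC. The WTC mouse of array M was lowest and the TC mouse of array K was also low, so the groups overlapped; the log2 ratio was 0.55 ± 0.11 (limma, adjusted p = 0.13). Suclg1, its partner subunit, had 0.53 ± 0.13, Dld, the lipoamide dehydrogenase shared by several complexes, 0.46 ± 0.11, and Pdha1, a subunit of pyruvate dehydrogenase, 0.45 ± 0.11. In the respiratory chain, Ndufs8 of complex I had 0.47 ± 0.13, Cyc1 of complex III 0.54 ± 0.14, and Cycs, which carries electrons between complexes III and IV, 0.48 ± 0.09. In glycolysis, Pgam1 had 0.46 ± 0.09 and Tpi1 0.32 ± 0.08. Tfam, which maintains mitochondrial DNA, had 0.35 ± 0.14, while the 15 genes of mitochondrial biogenesis had a median of -0.02.

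The levels by mouse show where the groups meet. The mean log2 level of the TCA list was 13.15 to 13.81 in TC and 12.91 to 13.59 in WTC, while T (13.59 to 13.68) and WT (13.56 to 13.86) were tightly grouped. The TC mice of arrays K and M (13.15 and 13.31) lay among the WTC mice, and the highest TC value belonged to the mouse of array I. For complexes II to V, TC ran from 14.50 to 15.14 and WTC from 14.37 to 14.90. Without the array of TC mouse I the medians were 0.30 for the TCA cycle and 0.18 for complexes II to V.

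**Figure D4:**
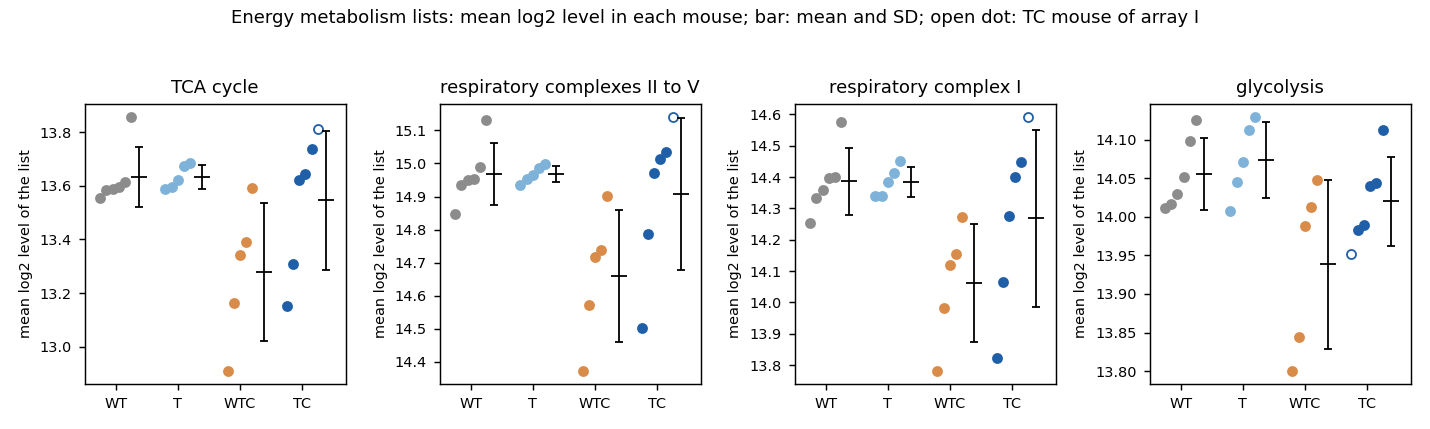
Mean log2 level (vertical axis) of 4 energy metabolism lists in each mouse by group, with the mean and SD as bars and the TC mouse of array I as the open dot. The WTC mice lie mostly below the WT and T mice. In the TCA and respiratory lists the TC mice spread more widely than intact mice, from the WTC levels up to or above intact levels. In glycolysis the TC mice (13.95 to 14.11) are close together and near the intact mice (14.01 to 14.13).

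Of the 15 glycogen genes, Ppp1r3c, described above, was the one called by the separate-channel fit. Phkg1, the catalytic subunit of phosphorylase kinase, ran from 9.36 to 9.84 in TC and from 9.86 to 10.23 in WTC, without overlap, and had a log2 ratio of -0.46 ± 0.12 (limma, adjusted p = 0.18); by separate channels the gene passed only without the TC mouse of array I (-0.51, adjusted p = 0.033). The 15 glycogen genes had a median of -0.01, with 1 higher and 2 lower at an unadjusted p under 0.05. The sign of that median was kept in 12 of 34 alternatives.

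Reactive astrocyte genes did not separate the groups. Gfap, the intermediate filament that defines the reactive state, ran from 13.94 through 14.66 to 15.67 in TC and was 15.73, 14.90, 14.03, 14.90 and 15.14 in WTC, far above intact mice (11.13 to 12.72). Its log2 ratio was -0.18 ± 0.41 (limma, adjusted p = 0.87), with 0.63, -0.25 and -0.75 on arrays K, L and M, and its sign was kept in 29 of 34 alternatives. Vim, its partner filament, had 0.18 ± 0.48 (adjusted p = 0.89), positive in 31 of 34 alternatives. Of 22 pan-reactive genes 1 was higher (Fgl2) and 0 lower at an unadjusted p under 0.05, with a median of -0.24, which was -0.19 without the array of TC mouse I.

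Genes of resting astrocyte function went in both directions. Of 22 homeostatic astrocyte genes, 8 were positive and 14 negative, 0 were higher and 5 lower at an unadjusted p under 0.05 in either fit, with a median of -0.13 that was negative in 32 of 34 alternatives. The mean level of the list was highest, over all 22 mice, in the TC mouse of array I (13.76). Mlc1, a membrane protein of astrocyte endfeet, ran from 14.64 through 14.84 to 15.16 in TC and was 15.40, 15.50, 15.29, 15.18 and 15.20 in WTC. The groups did not overlap, and T and WT mice (14.45 to 15.00) lay with TC; the log2 ratio was -0.47 ± 0.11 (limma, adjusted p = 0.15). Glul, glutamine synthetase, ran from 14.37 to 14.76 in TC and from 14.85 to 15.09 in WTC, without overlap, with -0.41 ± 0.13 (adjusted p = 0.22). Slc1a2, the main glutamate transporter, had -0.48 ± 0.13, and Mfge8, a secreted bridge to phagocytes, -0.58 ± 0.14. Gldc, the glycine cleavage decarboxylase of astrocytes, was lower without overlap (9.66 to 11.03 in TC, 11.08 to 11.73 in WTC, -0.92 ± 0.30), as was Acss1, a mitochondrial acetyl-CoA synthetase (11.86 to 12.23 in TC, 12.47 to 12.68 in WTC, -0.34 ± 0.09); these were chosen for that separation after their values were seen. Mlc1, Glul, Gldc and Acss1 passed in neither fit.

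Immune lists had negative medians and few members at an unadjusted p under 0.05 in the ratio fit, where 6.11% of all features were higher and 8.68% lower. Of 22 homeostatic microglia genes 21 were negative, 0 higher and 2 lower, with a median of -0.33 that became -0.19 without the array of TC mouse I. Aif1, the microglial calcium-binding protein IBA1, had -0.48 ± 0.35 (limma, adjusted p = 0.55), and Itgam, the integrin CD11b, -0.46 ± 0.18 (adjusted p = 0.29). Complement genes had a median of -0.22 (0 higher and 2 lower of 19) and chemokines -0.24 (0 and 2 of 19). The microglia, complement and chemokine medians were negative in all 34 alternatives. They ran from -0.52 to -0.0084, from -0.51 to -0.031 and from -0.58 to -0.023, so some values were close to 0. In the separate-channel fit 0 members of these lists were higher, and 5 of 22, 4 of 19 and 3 of 19 were lower. Over all features 7.4% were higher and 9.33% lower in that fit. C3, the central complement component and a marker of one reactive astrocyte state, ran from 9.28 through 10.98 to 12.31 in TC and was 12.44, 12.51, 12.47, 12.36 and 13.42 in WTC. All WTC mice lay above all TC mice, and the difference was -0.16 on array K, -0.48 on L and -2.71 on M. The log2 ratio was -1.44 ± 0.49 (adjusted p = 0.25).

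Other inflammatory genes went in both directions. Cxcl5, a neutrophil chemokine, had -1.60 ± 0.70 (limma, adjusted p = 0.33) and Traf1, an NF-kB target, -0.51 ± 0.16. Il11, a cytokine of the IL-6 family, ran from 7.88 through 8.66 to 9.87 in TC and was 7.57, 7.70, 7.72, 7.79 and 8.09 in WTC, with overlap only through the TC mouse of array I. Its log2 ratio was 1.23 ± 0.24 in the ratio fit (adjusted p = 0.13), and in the separate-channel fit without that mouse it passed (1.23, limma, adjusted p = 0.0078). The IL-6 and STAT3 list as a whole had a median of -0.14 (1 higher and 2 lower of 18). Interferon and antigen presentation genes had medians of -0.02 and -0.02, with 0 members of 25 and 0 of 20 in either direction. These medians were close to that of all features (-0.02), and their sign was kept in 16 and 20 of 34 alternatives.

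Proliferation and scar genes were lower in value, without a call. The 24 cell cycle genes had a median of -0.44, with 0 members in either direction at an unadjusted p under 0.05 in the ratio fit, while the separate-channel fit had 1 higher and 8 lower and a median of -0.69. In the ratio fit the median was -0.32 without the array of TC mouse I. Of 20 collagen and scar matrix genes 0 were higher and 3 lower, with a median of -0.34, negative in 34 of 34 alternatives as was that of the cell cycle. Col6a1, a collagen VI chain, had -0.95 ± 0.29 (limma, adjusted p = 0.22). Among growth factors, Bmp4 had -0.65 ± 0.15 (adjusted p = 0.14) and Igf1 0.53 ± 0.13 (adjusted p = 0.16). Ribosome biogenesis genes had a median of 0.10 (5 higher and 1 lower of 20), among them Nop14 and Nolc1, a nucleolar chaperone (0.28 ± 0.09).

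Neuronal genes varied by class. Of 25 synaptic release genes, 5 were higher and 1 lower at an unadjusted p under 0.05, and the median was -0.03. Cplx1, a complexin of fast-releasing synapses, ran from 14.44 through 15.11 to 15.56 in TC and was 14.79, 13.99, 13.87, 14.53 and 14.17 in WTC, with a log2 ratio of 0.80 ± 0.18 (limma, adjusted p = 0.14). Nefm, a neurofilament, had 0.98 ± 0.24 and Vamp1, a vesicle SNARE, 1.12 ± 0.44; for all 3 the TC mouse of array I was the highest. Among glutamate receptors, Grm3 had -0.53 ± 0.16 and Grin2b -0.85 ± 0.36. The 20 layer markers of excitatory cortical neurons had a median of -0.14 with 1 higher and 0 lower. Its sign was kept in 26 of 34 alternatives and turned in the separate-channel fit without the TC mouse of array I. That mouse had a mean level of 9.40 for this list, the lowest of all mice. The other TC mice had 10.24 to 11.03, WTC 10.18 to 10.83, T 10.87 to 11.35 and WT 10.02 to 11.19.

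The most negative lists mark tissue other than cortex. All 14 striatal medium spiny neuron genes had a negative ratio, 14 at an unadjusted p under 0.05, with a median of -1.56; the separate-channel fit had 7 of 14 and a median of -1.14. Rgs9, a striatal regulator of G protein signalling, had -2.26 ± 0.49 (limma, adjusted p = 0.14) and Ppp1r1b, which encodes DARPP-32, -1.71 ± 0.36 (adjusted p = 0.13). The mean log2 level of the list was 9.26 to 11.50 in TC, 8.87 to 12.22 in WTC, 9.39 to 11.83 in T and 9.72 to 12.69 in WT, so mice of every group differed severalfold. The TC mouse of array J was high and the WTC mouse of array A low. In intact mice the list also had a negative median, -1.11 for T minus WT.

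All 15 choroid plexus and ependyma genes were negative, 0 higher and 8 lower at an unadjusted p under 0.05, with a median of -1.84. Ccdc153, of motile cilia, had -2.36 ± 0.81 (limma, adjusted p = 0.25) and Rsph1, a radial spoke protein, -1.13 ± 0.37 (adjusted p = 0.23). Its mean level was 7.36 to 11.65 in TC and 9.42 to 11.70 in WTC, and 2 TC mice, of arrays J and L, reached the WTC levels. How much striatum or ventricle wall each piece of tissue held was not tested apart from these markers.

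**Figure D5:**
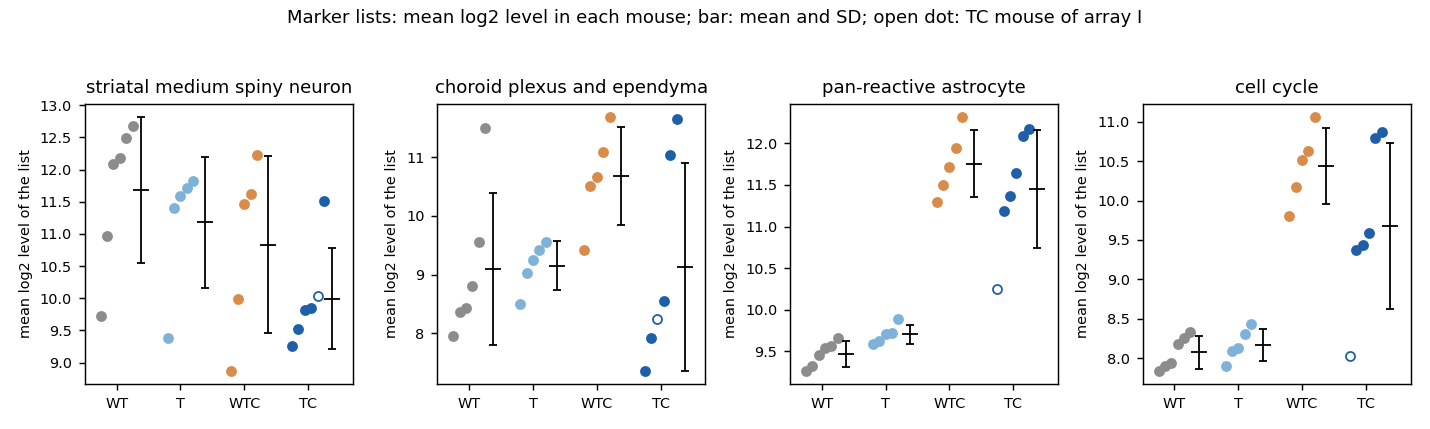
Mean log2 level (vertical axis) of 4 marker lists in each mouse by group, with the mean and SD as bars and the TC mouse of array I as the open dot. Striatal and choroid plexus markers vary widely within groups, and the pan-reactive astrocyte and cell cycle lists put the TC mouse of array I (10.25 and 8.03) below all other lesioned mice.

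All 6 TC mice lay above all 16 other mice in 8 of 25962 features (0.0308%) and below them in 3 (0.0116%), as a description with no test. The 8 were Dgkk, Tinf2, Ppp1r3c, Taf13, Pax1, Kdelr3, 1700003F12Rik and Timm17b. Kdelr3, a receptor that returns proteins to the endoplasmic reticulum, had a log2 ratio of 0.98 ± 0.31 (limma, adjusted p = 0.22). 1700003F12Rik was well above background in 6 of 6 TC and 0 of 5 WTC channels and was at least 1.89-fold higher (limma, adjusted p = 0.2). For this gene and Pax1 the TC channels alone met the filter on dim probes, so their place among the 8 gives no independent support. Timm17b, a subunit of the mitochondrial import channel, had 0.19 ± 0.09. Those below included Supt6, a histone chaperone of transcription elongation (-0.26 ± 0.08, limma, adjusted p = 0.22).

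Whether the genotype effect differed between lesioned and intact cortex was tested as (TC minus WTC) minus (T minus WT). The ratio fit called 0 features higher and 0 lower (smallest adjusted p = 0.81), with 762 higher (2.92%) and 640 lower (2.45%) at an unadjusted p under 0.05. The separate-channel fit also called 0 and 0 (limma, smallest adjusted p = 0.18), with 683 higher (2.62%) and 937 lower (3.59%) before adjustment. For Dgkk the difference was 2.71 ± 0.58 and for Fbxl21 1.64 ± 0.37 in the ratio fit (limma, adjusted p = 0.81 for both). In intact mice, T minus WT gave 0 calls in both fits, with 0.14 ± 0.46 for Dgkk and 0.19 ± 0.29 for Fbxl21. A p that misses the threshold does not show that the genotype effect was alike with and without the lesion.

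The authors' deposited table of TC against WTC, whose log base is not stated and was taken as 2, lists 4283 of 59305 spots as higher (7.22%) and 2339 as lower (3.94%) at an adjusted p under 0.05. Of the 47 features called by the separate-channel fit, 46 pass with the same sign in the authors' deposited table. The log ratios in the authors' deposited table correlated across features with the separate-channel fit (Pearson's r = 0.91) and with the ratio fit (0.87); features are not independent and the values share the same arrays. For Dgkk the authors' deposited table gives 3.36 and for Fbxl21 2.24, with adjusted p-values of 0.0024 and 0.00095.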

How the data were processed

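The authors deposited, for each array, the median spot and background intensity of both dyes and a log10 ratio which, per the file headers, came from version 10.7.3.1 of Agilent's Feature Extraction software, and a table of log ratios, taken as log2, and p-values made with limma (version not given in the sources used here). Intensities were background-corrected (normexp, offset 50), loess-normalized within arrays and averaged over the spots of a probe. A probe had to exceed background clearly in 5 or more of the 22 channels (35549 probes did), and the probe of highest mean intensity stood for a gene with several, leaving 26079 features, 16064 with a symbol. The ratio fit and the separate-channel fit, which also used Aquantile normalization between arrays, were run, with a dye term, in limma 3.58.1 (R 4.3.3) with Benjamini-Hochberg adjustment. Levels by mouse are the separate-channel log2 values less the dye term. The ratio fit is the stated test and the separate-channel fit an alternative to it. Both were tested on simulated data for TC minus WTC: with 25962 features, the ratio fit recovered 93 of 100 genes changed by 1 on the log2 scale and the separate-channel fit 97, with 12 and 11 false calls. The simulated levels had normal errors of a preset size, without outlying mice or differences in sex, slide, labels or tissue. These counts check the fits and do not show what share of changed genes either finds in the measured data.

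Named genes were the 10 of each direction with the smallest p and 1 sign on arrays K, L and M, up to 4 such members of each list described, Creb1, Crem, Atf1, Gfap, Vim, Aif1, Prm1 and Dgkk, and, chosen after their values were seen, genes called by the separate-channel fit or without overlap between TC and WTC. The comparison, the lists and the rule were chosen with earlier results of these data known. The arrays carry no read depth, and their number limits the precision. Alternatives covered background correction, normalization, the filter on dim probes, dye, slide, sex, labels and each array left out. The results of some list members are not reported here.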

Additional observations from a re-analysis of the deposited data

Results flagged for a closer look

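Single mice stood apart from their own group in 21 of 290 groups of levels examined (92 genes and 53 lists, in TC and in WTC), by Dixon's test of the gap between the extreme mouse and its neighbour; chance gives about 1 in 20. No cause was tested for any of them. The TC mouse of array C was the highest of its group for Ppp1r3c (12.60, others 11.52 to 11.89), Kdelr3 (9.55, others 7.44 to 8.16) and 1700003F12Rik (8.49, others 6.62 to 7.15), so these means lean on 1 mouse, although the other 5 TC mice also exceeded all WTC mice. Striatal markers were highest in the TC mouse of array J: 11.50 for the list (others 9.26 to 10.03), 12.91 for Pde10a (others 10.76 to 10.95) and 13.15 for Rgs9 (others 10.31 to 11.15).

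The TC mouse of array I, whose labels conflict, was lowest for the glutathione and NRF2 list (11.92, others 12.25 to 12.43) and the growth factor list (9.30, others 9.71 to 9.88), and highest for Timm17b (12.96, others 12.80 to 12.85). The TC mouse of array K was lowest for Slc25a3 (13.59, others 13.91 to 14.09) and Cycs (13.80, others 14.41 to 14.74) and highest for Trmt6 (10.14, others 9.06 to 9.40). Within TC, the mouse of array L was lowest for Rragd (7.30, others 7.81 to 7.97) and S1pr1 (11.39, others 12.04 to 12.40), and that of array M was lowest for Supt6 (13.51, others 13.60 to 13.63).

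Among WTC mice, that of array M, the female, was highest for C3 (13.42, others 12.36 to 12.51) and for the CREB family list (11.20, others 10.93 to 11.005). That of array A was highest for Gm12070 (16.92, others 16.69 to 16.72) and lowest for the leptomeninges list (9.24, others 9.92 to 10.12). That of array K was highest for Spata17 (7.39, others 6.93 to 7.06), and that of array B for Acss1 (12.68, others 12.47 to 12.52).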

How the results depend on the processing

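Calls are given as a percentage of the 26079 features tested. The ratio fit stayed at 0 higher and 0 lower except with the second-channel labels of arrays I, J and K (1 higher, 0.00383%; 2 lower, 0.00767%), with only the 3 arrays pairing TC and WTC, without a dye term (1 higher, 0.00383%) and when single arrays were left out (0 to 0.00383% in each direction, the 1 feature each way being without array I). The separate-channel fit gave 0.15% higher and 0.0307% lower (39 and 8 features), 0.521% and 0.13% with slide as a term, 0.169% and 0.0192% (44 and 5 features) once the array I mouse from TC was left out, and 0.092% (24 features) higher and 0 lower with a sex term. On slide 2 alone, whose mice helped pick the 47, it called 0, with all 47 still at an unadjusted p under 0.05. Chosen after seeing the data, it gave 0.00767% (2 features) higher in the lesioned mice alone, 0.0422% (11 features) higher and 0.00383% (1 feature) lower without the female WTC mouse, and 0.0729% (19 features) higher with the second-channel labels. Of the 47 called features, 34 were still called once that mouse was left out, 24 with the sex term and 47 with slide, and all 47 kept their sign in each. The cause of these differences was not tested. The number of mice and the spread between them set the precision, and the median SE of a log2 ratio was 0.11 in the ratio fit.

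Over 92 named genes, 3108 of 3126 values under an alternative kept their direction, and 18 did not, all of Atf1, Gfap or Vim. Apart from genes named whatever their values, such as these, the 92 were picked from the same arrays by sign, p, call or separation. For the picked genes a kept direction was largely fixed in advance and gives no independent support. Atf1 (-0.03) became 0.017 with the scanner's log ratio, 0.16 with median centring and 0.0067 in the separate-channel fit. In that fit it was 0.0197 with slide, 0.0183 with sex, 0.0222 once the array I mouse from TC was left out, 0.0158 in lesioned mice alone, 0.0428 without the female WTC mouse and 0.0534 with the second-channel labels. Leaving out single arrays gave Atf1 -0.16 to 0.093. Gfap (-0.18) became 0.064 with median centring, 0.10 on the 3 pairing arrays, 0.21 with the second-channel labels, 0.15 with a sex term, and -0.47 to 0.025 over the single arrays left out. Vim (0.18) became -0.018 without array C, ranged from -0.22 to 0.51 over the single arrays left out, and was -0.0787 in the separate-channel fit with the second-channel labels. The 2 mice that share an array are paired in both fits. No paired analysis by replicate number was possible because these numbers only count arrays of one kind and link no mice across arrays.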
